A study of Homo sapiens with 8 samples.

Results

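YAP1 and TAZ are transcriptional co-activators at the end of the Hippo pathway. They cannot bind DNA themselves and act through the TEAD factors, which recognise a short motif in the promoters and enhancers of genes for matrix proteins, cytoskeleton and growth. When the Hippo kinases phosphorylate them, YAP1 and TAZ are held in the cytoplasm or degraded, so their activity is set mainly on the protein. The vestigial-like proteins VGLL3 and VGLL4 bind the same TEAD factors, and VGLL4 competes with YAP1 for them. In the mouse heart, Yap1 and Tead1 are known to be needed for cardiomyocyte proliferation in development. The 8 genes described here encode both co-activators (YAP1 and WWTR1, the gene of TAZ), all TEAD factors (TEAD1, TEAD2, TEAD3 and TEAD4) and the cofactors VGLL3 and VGLL4. They were chosen by symbol, and all 8 are among the 19479 genes of both deposited tables.

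The study sequenced total RNA from AC16 cells, labelled as cardiomyocytes; this human cell line still divides and descends from adult heart muscle cells that were fused with a transformed fibroblast. Its title concerns ERK signalling and YAP1/TAZ in high glucose. The 8 libraries fall into 4 groups of 2, all of the same line and none with an inhibitor or an osmotic control. In the 25 to 50 mM group, cells kept at 25 mM D-glucose for at least 3 passages received a further 25 mM for 24 h, and the 25 mM group stayed at 25 mM. In the 5 to 50 mM group, cells kept at 5 mM received a further 45 mM for 24 h, and the 5 mM group stayed at 5 mM. The design text calls the replicates technical, so p-values measure the spread between libraries and not between cultures.

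Library totals ran from 21538898 to 27372851 reads. The libraries of the 5 mM group stood farthest apart, where the counts of the 2 libraries gave a chi-square of 16.6 per degree of freedom over all genes, against 2.6 in the 5 to 50 mM group, 7.84 in the 25 to 50 mM group and 6.73 in the 25 mM group. Of 18 cardiomyocyte markers, 3 reached 1 RPKM (reads per length of the gene and per depth of the library) in at least 2 libraries, and MYL2, NKX2-5 and TBX5 were at 0 in all of them. All 15 fibroblast markers reached that level. In these bulk libraries, fewer cells of a type and less RNA per cell cannot be told apart.

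All 8 genes were transcribed in every group. Counted per gene length, YAP1 was the most abundant at 72.955 to 98.2 RPKM, followed by TEAD4 at 54.04 to 77.7 RPKM, TEAD3 at 56.6 to 62.1 RPKM, VGLL3 at 32.3 to 69.997 RPKM and TEAD1 at 36.8 to 57.6 RPKM. WWTR1 had 23.7 to 30.7 RPKM, TEAD2 had 19.95 to 23.4 RPKM and VGLL4 had 6.14 to 14.02 RPKM. By their mean over 8 libraries, YAP1 stood above 88.3% and VGLL4 above 49.3% of the 16297 genes with any read. The smallest number of reads behind any value was 161, for VGLL4 in a 25 to 50 mM library, and the largest was 4075, for YAP1 in a 25 mM library. The gene lengths behind the values were near the coding length (1007 bases for VGLL3 and 1527 for YAP1), so the levels describe the coding part of each transcript. In RefSeq (GRCh38.p14) YAP1 lies at chr11:102110447-102233424, TEAD1 at chr11:12674421-12944737, WWTR1 at chr3:149517235-149724788, VGLL3 at chr3:86937973-86991149, VGLL4 at chr3:11556067-11721815, TEAD2 at chr19:49340595-49362416, TEAD3 at chr6:35473597-35497079 and TEAD4 at chr12:2959397-3040676.

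**Figure D1:**
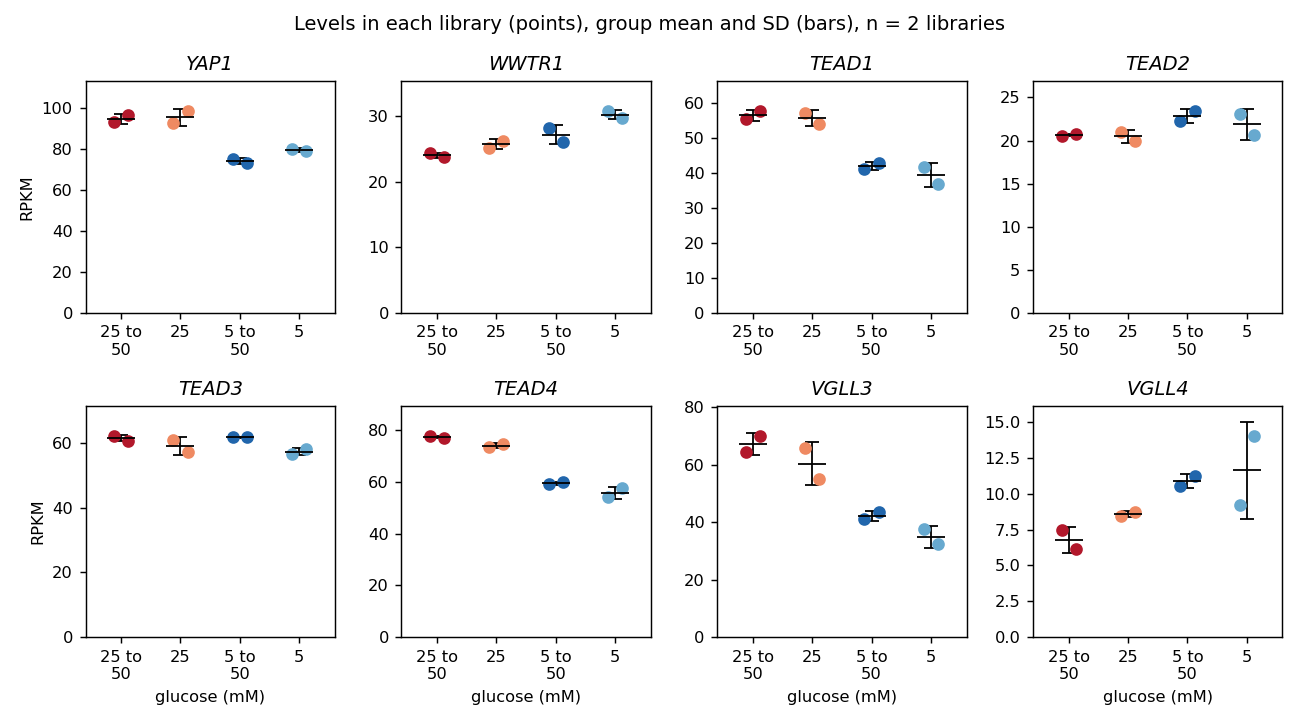
RPKM of the 8 genes (y axis, from 0) by glucose group (x axis); points are libraries, horizontal lines group means and bars SD (n = 2). YAP1, TEAD1, TEAD4 and VGLL3 were higher in all 4 libraries of cells kept at 25 mM than in all 4 of cells kept at 5 mM, and VGLL4 was lower. Of all genes tested, 48.3% likewise did not overlap between these sets of 4 libraries.

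The calls lay between cultures with different glucose histories. Between the maintained cultures, YAP1, TEAD1, TEAD4 and VGLL3 were higher at 25 mM than at 5 mM and WWTR1 was lower. After both had been raised to 50 mM, YAP1, TEAD1, TEAD4 and VGLL3 were again higher in the cells with the 25 mM history, and VGLL4 was lower. No transcript of the complex passed the test in either rise to 50 mM. Over all genes tested, 39.1% were called between the maintained cultures and 41.4% between the cultures raised to 50 mM. In the rises from 25 mM and from 5 mM, 0.00876% and 0.329% were called.

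The maintained cultures were compared on log2(RPKM + 1) values in a limma fit of all 8 libraries, adjusting p by Benjamini-Hochberg over the 11941 genes tested and taking 0.05 as the threshold. Of the 8 genes, 4 were higher and 1 was lower at 25 mM than at 5 mM. This comparison called 39.1% of all genes tested (17% higher and 22.1% lower), so 5 of 8 is not far from what the whole table gave. At an unadjusted p under 0.05 there were 5 of the 8, against 48.2% of all genes, and 6 of the 8 had groups that did not overlap, against 67.8%. All calls split into 2032 higher and 2639 lower, and under quantile normalization into 2648 higher and 2068 lower; the number called among the 8 genes was 5 under both. RPKM is scaled within each library, and the same gene length fitted both tables, but each history lies in its own table, and history and any difference in handling between the sets cannot be told apart.

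YAP1, the co-activator with the higher transcript level, had 92.4 and 98.2 RPKM at 25 mM, against 79.9 and 78.7 RPKM at 5 mM. The groups did not overlap. The log2 change was 0.26 (SE 0.05, adjusted p = 0.00459 by limma), a 1.2-fold higher value with a 95% interval of 1.11 to 1.3-fold. WWTR1, which encodes TAZ, had 25.1 and 26.3 RPKM at 25 mM, against 30.7 and 29.7 RPKM at 5 mM. It went the other way from YAP1, again without overlap, and fell by 0.23 on the log2 scale (SE 0.06, adjusted p = 0.0229 by limma). This call was lost without 25 mM replicate 1 (adjusted p = 0.124), without 25 mM replicate 3 (adjusted p = 0.0591) and without 5 mM replicate 1 (adjusted p = 0.0645), with log2 changes between -0.26 and -0.20. The antisense gene WWTR1-AS1 covers 22% of the coding bases of WWTR1 in GENCODE 29, and without a stated strand setting its reads cannot be told apart from those of WWTR1.

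Among the DNA-binding factors, TEAD1 had 57.2 and 53.9 RPKM at 25 mM, against 41.6 and 36.8 RPKM at 5 mM. Both 25 mM libraries were above both 5 mM libraries, and the log2 change was 0.49 (SE 0.07, adjusted p = 0.00121 by limma). TEAD4 had 73.3 and 74.6 RPKM at 25 mM, against 54.04 and 57.4 RPKM at 5 mM. These groups too were apart, with a log2 change of 0.40 (SE 0.05, adjusted p = 0.000552 by limma). TEAD2 and TEAD3 did not pass. TEAD2 had 21.01 and 19.95 RPKM at 25 mM, against 23.1 and 20.6 RPKM at 5 mM, with overlapping groups and a 95% interval of the log2 change from -0.26 to 0.08. TEAD3 had 60.9 and 56.98 RPKM at 25 mM, against 56.6 and 57.95 RPKM at 5 mM, also overlapping, with an interval from -0.08 to 0.16. The TEAD genes are close relatives, yet among them only TEAD3 and TEAD4 shared windows of 50 identical bases. There were 7, which is 0.23% of the windows in TEAD3 and 0.286% of those in TEAD4. Windows were taken at every base of the whole transcripts, so neighbouring ones can overlap.

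VGLL3, a TEAD cofactor of the vestigial-like family, differed most among the 8 genes. It had 65.7 and 55.01 RPKM at 25 mM, against 37.6 and 32.3 RPKM at 5 mM. The lower 25 mM library was still above the higher 5 mM library. The log2 change was 0.77 (SE 0.10, adjusted p = 0.000885 by limma), a 1.71-fold higher value with a 95% interval of 1.45 to 2.02-fold. VGLL4, which competes with YAP1 for TEAD factors, had 8.46 and 8.73 RPKM at 25 mM, against 9.24 and 14.02 RPKM at 5 mM. The groups did not overlap, but the 5 mM libraries lay far apart, and the log2 change of -0.37 (SE 0.17, adjusted p = 0.124 by limma) did not pass. Without 5 mM replicate 1 it was -0.65 and passed (adjusted p = 0.00503 by limma), so the value rests on which 5 mM library is used.

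**Figure D2:**
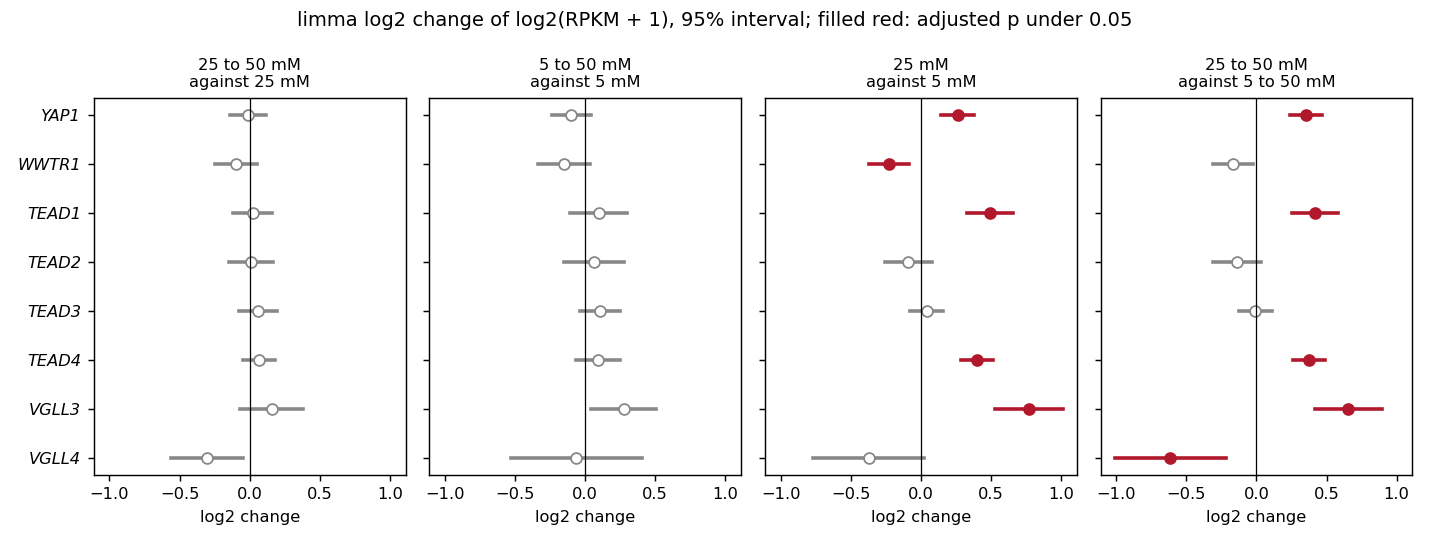
Log2 change (x axis) of the 8 genes (rows) in each comparison, with 95% intervals from limma; filled red points passed the adjusted threshold of 0.05. No gene passed in either rise to 50 mM, where 0.00876% (from 25 mM) and 0.329% (from 5 mM) of all genes tested did. Between 25 mM and 5 mM 5 of 8 passed, against 39.1% of all genes. Between the cultures raised to 50 mM 5 of 8 passed, against 41.4%.

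The second comparison across histories used the cultures that had both spent 24 h at 50 mM. It shares no library with the first, although the same fit supplied the spread. Of the 8 genes, 4 were higher and 1 was lower in 25 to 50 mM than in 5 to 50 mM cultures, against a background of 41.4% of the 11941 genes called (18.1% higher and 23.3% lower). There were 6 of the 8 genes at an unadjusted p under 0.05, against 50.4% of all genes, and 7 of the 8 did not overlap, against 74.8%. All calls split into 2164 higher and 2782 lower, under median centring into 2799 higher and 2377 lower and under quantile normalization into 3081 higher and 2046 lower; 5 of the 8 genes were called under each.

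YAP1 had 92.9 and 96.3 RPKM in 25 to 50 mM cultures, against 74.8 and 72.955 RPKM in 5 to 50 mM cultures. The log2 change of 0.35 (SE 0.05, adjusted p = 0.00108 by limma) was in the same direction as between the maintained cultures. WWTR1 had 24.3 and 23.7 RPKM in 25 to 50 mM cultures, against 28.1 and 26.1 RPKM in 5 to 50 mM cultures. The groups were apart, but the log2 change of -0.17 (SE 0.06, adjusted p = 0.0625 by limma) missed the threshold. TEAD1 had 55.3 and 57.6 RPKM in 25 to 50 mM cultures, against 41.1 and 42.8 RPKM in 5 to 50 mM cultures, a log2 change of 0.42 (SE 0.07, adjusted p = 0.00248 by limma). TEAD4 had 77.7 and 77.02 RPKM in 25 to 50 mM cultures, against 58.9 and 59.8 RPKM in 5 to 50 mM cultures, a log2 change of 0.38 (SE 0.05, adjusted p = 0.000724 by limma). In both genes the libraries of each group differed by far less than the groups. TEAD2 had 20.5 and 20.8 RPKM in 25 to 50 mM cultures, against 22.3 and 23.4 RPKM in 5 to 50 mM cultures, and did not pass although the groups were apart (adjusted p = 0.164 by limma). TEAD3 had 62.1 and 60.7 RPKM in 25 to 50 mM cultures, against 61.8 and 61.6 RPKM in 5 to 50 mM cultures, with a 95% interval of the log2 change from -0.13 to 0.11. TEAD3 was the gene of the complex whose 4 group means lay closest together.

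VGLL3 had 64.4 and 69.997 RPKM in 25 to 50 mM cultures, against 41.1 and 43.5 RPKM in 5 to 50 mM cultures. This was a log2 change of 0.65 (SE 0.10, adjusted p = 0.00181 by limma), with both groups apart. VGLL4 had 7.44 and 6.14 RPKM in 25 to 50 mM cultures, against 10.5 and 11.2 RPKM in 5 to 50 mM cultures. It fell by 0.61 on the log2 scale (SE 0.17, adjusted p = 0.0227 by limma), to 0.65-fold of the 5 to 50 mM value. The VGLL4 call was lost without 25 to 50 mM replicate 3 (adjusted p = 0.123), without 5 to 50 mM replicate 1 (adjusted p = 0.0761) and without 5 to 50 mM replicate 2 (adjusted p = 0.109), with log2 changes between -0.66 and -0.49.

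Read across all 4 groups, 5 of the 8 genes had no overlap between the 4 libraries with a 25 mM history and the 4 with a 5 mM history: YAP1, TEAD1, TEAD4 and VGLL3 were higher and VGLL4 was lower. Of all genes tested, 48.3% had no such overlap. The order of the group means was the same for TEAD1, TEAD4 and VGLL3, from 25 to 50 mM through 25 mM and 5 to 50 mM to 5 mM. In TEAD4 no neighbours in this order overlapped. In TEAD1 the groups overlapped within each history, and in VGLL3 only the 25 to 50 mM and 25 mM groups did. VGLL4 and WWTR1 had the reverse order. In WWTR1 the 5 to 50 mM and 25 mM groups overlapped, and in VGLL4 the 5 mM and 5 to 50 mM groups did. YAP1 was highest at 25 mM, then 25 to 50 mM, 5 mM and 5 to 50 mM, with overlap only within the 25 mM history. TEAD2 and TEAD3 had overlap between all neighbours in their order.

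**Figure D3:**
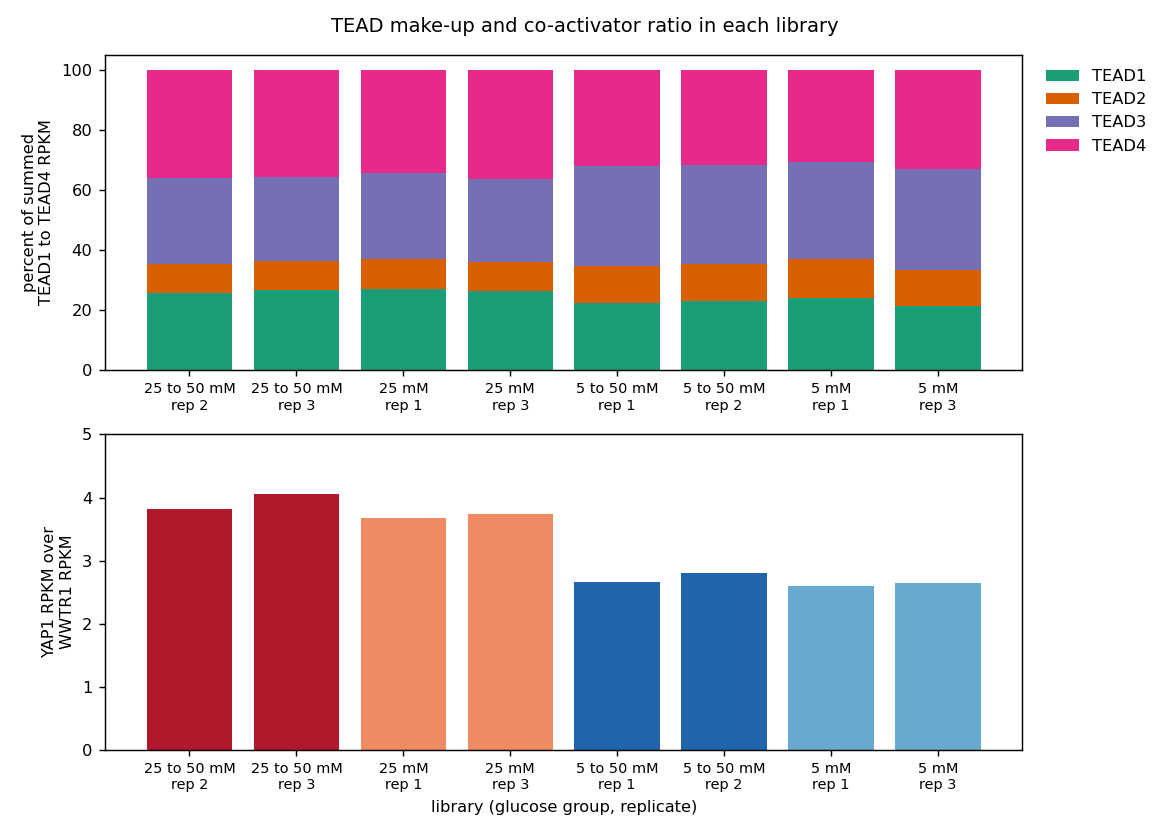
Top: each TEAD gene as a percent of the summed TEAD1 to TEAD4 RPKM in each library; bottom: YAP1 RPKM divided by WWTR1 RPKM in each library (y axis from 0). The ratio lies between 3.68 and 4.06 in the 4 libraries with a 25 mM history and between 2.6 and 2.8 in the 4 with a 5 mM history.

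At the transcript level the make-up of the complex differed between the histories. The values recombine the levels above, and 48.3% of all genes tested had no overlap between the histories. The ratio of YAP1 to WWTR1 was 3.82 and 4.06 in 25 to 50 mM cultures and 3.68 and 3.74 in 25 mM cultures, against 2.66 and 2.8 in 5 to 50 mM cultures and 2.6 and 2.65 in 5 mM cultures. WWTR1 made up 20.2% ± 0.682 of the summed co-activator RPKM in 25 to 50 mM cultures and 21.2% ± 0.211 in 25 mM cultures, against 26.8% ± 0.693 in 5 to 50 mM cultures and 27.6% ± 0.262 in 5 mM cultures (SD, n = 2 each). The summed TEAD RPKM was 216 in both 25 to 50 mM libraries and 212 and 205 at 25 mM, against 184 and 188 in 5 to 50 mM libraries and 175 and 173 at 5 mM. The pool with the 25 mM history held more TEAD1 and TEAD4: TEAD4 made up 35.8% ± 0.269 of it in 25 to 50 mM and 35.4% ± 1.27 in 25 mM cultures, against 31.9% ± 0.105 in 5 to 50 mM and 32.03% ± 1.72 in 5 mM cultures (SD, n = 2 each). TEAD1 made up 26.1% ± 0.716 in 25 to 50 mM and 26.6% ± 0.471 in 25 mM cultures, against 22.6% ± 0.362 in 5 to 50 mM and 22.5% ± 1.73 in 5 mM cultures. The shares of TEAD2 and TEAD3 were smaller there, although neither transcript passed the test in either comparison of histories. TEAD2 made up 9.57% ± 0.0608 in 25 to 50 mM and 9.8% ± 0.125 in 25 mM cultures, against 12.3% ± 0.261 in 5 to 50 mM and 12.6% ± 0.891 in 5 mM cultures. TEAD3 made up 28.4% ± 0.508 in 25 to 50 mM and 28.2% ± 0.669 in 25 mM cultures, against 33.2% ± 0.518 in 5 to 50 mM and 32.9% ± 0.906 in 5 mM cultures. VGLL3 exceeded VGLL4 8.66-fold and 11.4-fold in 25 to 50 mM libraries and 7.77-fold and 6.3-fold at 25 mM, against 3.9-fold and 3.87-fold in 5 to 50 mM libraries and 4.07-fold and 2.3-fold at 5 mM. With 2 libraries against 2, the smallest two-sided p of an exact permutation test is 0.333, so these ratios are given without a test.

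In the rises to 50 mM no log2 change of the 8 transcripts passed the threshold. The largest in each rise were VGLL4 from 25 mM and VGLL3 from 5 mM. In size they exceeded those of 94.39% and 92.35% of all genes tested. Both were picked as the largest of 8, so a high rank does not mark them as unusual. From 25 to 50 mM, limma called 0 of the 8 genes, against 0.00876% of the 11422 genes tested. At an unadjusted p under 0.05 there was 1, VGLL4, against 9.25% of all genes, and voom on the recovered reads called 0. VGLL4 had 7.44 and 6.14 RPKM in 25 to 50 mM cultures, against 8.46 and 8.73 RPKM in 25 mM cultures, without overlap (log2 change -0.31, SE 0.11, adjusted p = 0.502 by limma). TEAD4 was higher and WWTR1 lower without overlap, which 43.5% of all genes tested also showed in either direction. The 95% intervals of the log2 change were -0.05 to 0.18 for TEAD4, -0.25 to 0.06 for WWTR1 and -0.14 to 0.12 for YAP1. For TEAD1 the interval was -0.12 to 0.16, for TEAD2 -0.15 to 0.17, for TEAD3 -0.08 to 0.19 and for VGLL3 -0.07 to 0.38.

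From 5 to 50 mM, limma again called 0 of the 8 genes, against 0.329% of the 11849 genes tested (0.312% higher and 0.0169% lower). There was 1 at an unadjusted p under 0.05, VGLL3, against 10.5% of all genes, and voom called 0. VGLL3 had 41.1 and 43.5 RPKM in 5 to 50 mM cultures, against 37.6 and 32.3 RPKM in 5 mM cultures, without overlap. Its log2 change was 0.27 (SE 0.09, adjusted p = 0.397 by limma). Without 5 mM replicate 1 it was 0.38 and passed (adjusted p = 0.0303 by limma). YAP1 had 74.8 and 72.955 RPKM in 5 to 50 mM cultures, against 79.9 and 78.7 RPKM in 5 mM cultures, also without overlap, with a 95% interval of the log2 change from -0.24 to 0.04. WWTR1, TEAD3 and TEAD4 likewise had no overlap, WWTR1 lower and the others higher, as did 42.6% of all genes tested in either direction. The intervals were -0.33 to 0.03 for WWTR1, -0.11 to 0.30 for TEAD1, -0.15 to 0.28 for TEAD2, -0.04 to 0.25 for TEAD3, -0.07 to 0.25 for TEAD4 and -0.53 to 0.41 for VGLL4.

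The rises from 25 mM and from 5 mM were compared by the interaction term of the fit of 8 libraries. Limma called 0 of the 8 genes, against 0.0251% of all genes tested (0.00837% higher and 0.0167% lower), 0 had an unadjusted p under 0.05 (6.04% of all genes did) and voom called 0. The difference of the log2 changes, from 25 mM minus from 5 mM, ran from -0.24 for VGLL4 (95% interval -0.80 to 0.32) to 0.09 for YAP1 (interval -0.07 to 0.25). For VGLL3 it was -0.12, with an interval of -0.46 to 0.22. The intervals of the VGLL genes were the widest of the 8.

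The targets of the complex were followed through a signature of 22 genes known to respond to YAP1 and TAZ. From 5 to 50 mM, 4 of the 22 rose and 0 fell by limma, beside 0.312% and 0.0169% of all genes tested. The list median log2 change was 0.13, against -0.03 over all genes tested. CTGF, a secreted matrix protein, averaged 292.5 ± 13.7 RPKM in 5 to 50 mM cultures and 138 ± 5.19 RPKM in 5 mM cultures (SD, n = 2), a log2 change of 1.08 (SE 0.06, adjusted p = 0.0269 by limma). ANKRD1, a stretch-responsive muscle protein, averaged 38.1 ± 3.76 RPKM in 5 to 50 mM cultures and 16.3 ± 1.03 RPKM in 5 mM cultures, a log2 change of 1.17. CYR61 and TGFB2, a secreted matrix protein and a growth factor, had log2 changes of 0.49 and 0.65. The same fit had no call among the transcripts of the complex. With 0.329% of all genes called, this does not show that those transcripts stayed the same. Limma called 0 of the 22 without the filter, without the trend, or with a replicate block. Leaving out a 5 to 50 mM library lowered the count, and leaving out a 5 mM library raised it. The calls over all genes moved the same way. From 25 to 50 mM, 0 of 22 passed by limma and by voom. At an unadjusted p of less than 0.05 there were 8 higher and 0 lower, beside 320 and 737 of the 11422 genes tested. CTGF averaged 223.5 ± 6.68 RPKM in 25 to 50 mM cultures and 169 ± 13.6 RPKM in 25 mM cultures, a log2 change of 0.40 (SE 0.06, adjusted p = 0.321 by limma). Leaving out 25 to 50 mM replicate 2 raised the number of calls, both in the signature and over all genes. For the difference between the rises, 0 of 22 passed by limma and by voom. With p left unadjusted, 1 was higher and 6 were lower, beside 274 and 447 of the 11941 genes tested. CTGF had a difference of -0.68 (SE 0.09, adjusted p = 0.228 by limma).

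The start regions of the targets were read for the motif that TEAD factors bind, which was searched as GGAATG and its reverse complement CATTCC in 300 bases, from 250 before to 50 after 1 transcript start of each gene (RefSeq, GRCh38.p14). It was present in 7 of the 16 signature genes with a sequence, in 14.05% of all 27305 promoters and in 10.8% of those of tested genes. CTGF had 3 copies, 169, 104 and 95 bases before the start, as did 0.147% of all promoters with 3 or more. ANKRD1 had 2, at 220 and 128 bases, and TGFB2 had 1 at 185 bases. Of the 6 genes of the complex with a sequence, YAP1 had 1 copy, 162 bases before that start, and VGLL3, VGLL4, WWTR1, TEAD2 and TEAD3 had none in these windows. The windows of WWTR1 (chr3:149703224-149703523) and VGLL4 (chr3:11604532-11604831) lie at starts inside the span of the gene, so the region before its outermost start was not searched. A match is a stretch of letters and not a binding site. CYR61, a signature gene that passed from 5 to 50 mM, had no sequence and was not searched. The promoters of the other 3 that passed there are printed beside that of YAP1. Each runs 5′ to 3′ on the strand of its gene, with the motif in capitals.
CTGF (chr6:131951323-131951622, minus strand): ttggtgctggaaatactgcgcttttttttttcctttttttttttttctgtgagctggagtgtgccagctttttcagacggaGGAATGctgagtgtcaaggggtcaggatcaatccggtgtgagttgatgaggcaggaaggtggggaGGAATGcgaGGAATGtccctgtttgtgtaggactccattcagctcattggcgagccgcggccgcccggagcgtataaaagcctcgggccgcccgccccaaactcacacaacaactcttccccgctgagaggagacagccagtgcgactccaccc
ANKRD1 (chr10:90921038-90921337, minus strand): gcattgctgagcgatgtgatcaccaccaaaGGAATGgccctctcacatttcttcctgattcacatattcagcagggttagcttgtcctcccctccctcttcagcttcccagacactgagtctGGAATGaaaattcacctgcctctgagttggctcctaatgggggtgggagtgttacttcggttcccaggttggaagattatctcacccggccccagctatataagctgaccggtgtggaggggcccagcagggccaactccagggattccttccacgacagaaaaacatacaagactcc
TGFB2 (chr1:218345086-218345385, plus strand): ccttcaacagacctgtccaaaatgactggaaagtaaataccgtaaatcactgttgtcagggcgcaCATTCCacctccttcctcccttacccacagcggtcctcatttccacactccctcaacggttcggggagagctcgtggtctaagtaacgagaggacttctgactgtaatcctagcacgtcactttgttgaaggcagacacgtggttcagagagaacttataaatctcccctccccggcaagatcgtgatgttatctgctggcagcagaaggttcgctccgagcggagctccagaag
YAP1 (chr11:102110197-102110496, plus strand): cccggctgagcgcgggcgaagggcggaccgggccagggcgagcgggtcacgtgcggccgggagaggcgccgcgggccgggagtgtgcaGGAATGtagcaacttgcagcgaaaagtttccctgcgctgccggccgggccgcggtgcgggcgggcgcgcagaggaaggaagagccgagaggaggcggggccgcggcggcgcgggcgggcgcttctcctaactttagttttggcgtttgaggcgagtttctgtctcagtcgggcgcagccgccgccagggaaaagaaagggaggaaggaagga

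Between the maintained cultures the targets moved in both directions while YAP1, TEAD1 and TEAD4 were higher. At 25 mM against 5 mM, 12 of the 22 were higher and 3 were lower, beside 17% higher and 22.1% lower among all genes tested, with a list median of 0.32 against a median of -0.00401 over all genes. With a replicate block 9 were higher and 3 lower. CCDC80, a matrix protein, averaged 168 ± 5.89 RPKM at 25 mM, against 56.4 ± 4.49 RPKM at 5 mM (SD, n = 2 each). TGFB2 averaged 37.4 ± 0.605 RPKM at 25 mM, against 18.9 ± 0.0974 RPKM at 5 mM. AXL, a receptor tyrosine kinase, averaged 441 ± 22.7 RPKM at 25 mM, against 319 ± 20.4 RPKM at 5 mM, while CTGF and CYR61 were higher by 0.29 and 0.26 on the log2 scale. ANKRD1 went the other way with 2.18 ± 0.273 RPKM at 25 mM, against 16.3 ± 1.03 RPKM at 5 mM, and so did NT5E, an ectonucleotidase (log2 change -1.39), and F3, tissue factor (log2 change -1.15). The Hippo feedback genes LATS2 and AMOTL2, themselves targets, were higher by 0.30 and 0.41. After 50 mM, 9 of the 22 were higher and 4 were lower with the 25 mM history, beside 18.1% higher and 23.3% lower among all genes tested. CTGF was then among the lower ones, with 223.5 ± 6.68 RPKM in 25 to 50 mM cultures and 292.5 ± 13.7 RPKM in 5 to 50 mM cultures (log2 change -0.39, SE 0.07, adjusted p = 0.00274 by limma), and ANKRD1 had 3.13 ± 0.41 RPKM in 25 to 50 mM cultures and 38.1 ± 3.76 RPKM in 5 to 50 mM cultures.

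**Figure D4:**
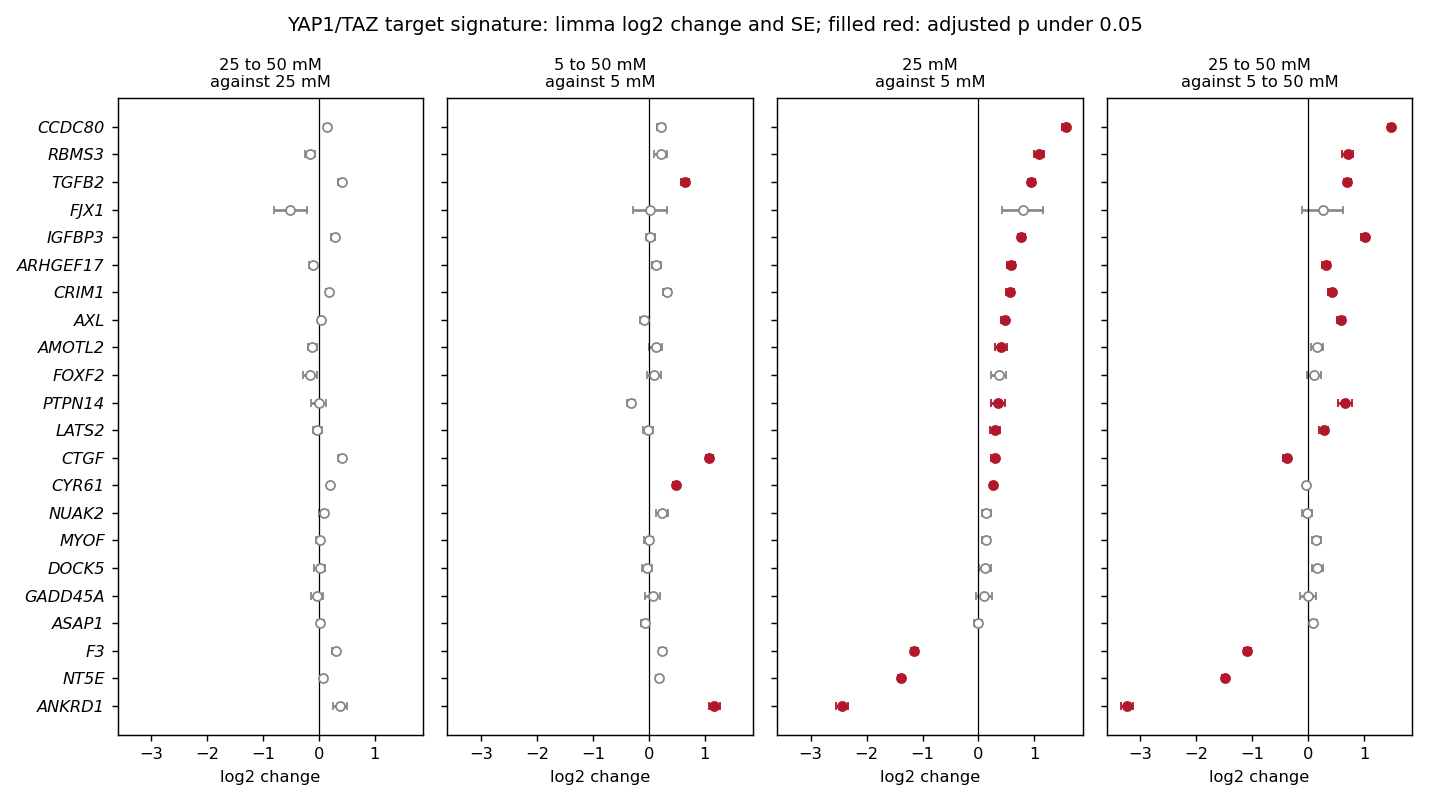
Log2 change (x axis) with SE of the 22 genes of the YAP1/TAZ target signature (rows, sorted by the change at 25 mM against 5 mM) in each comparison; filled red points passed the adjusted threshold of 0.05. CTGF, ANKRD1, CYR61 and TGFB2 passed from 5 to 50 mM, where 0.329% of all genes tested did. None of the 22 passed there without the filter, without the trend or with a replicate block. From 25 to 50 mM none passed, against 0.00876% of all genes. At 25 mM against 5 mM 12 were higher and 3 lower, beside 17% higher and 22.1% lower among all genes.

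The genes that restrain the co-activators were read from the same fits. Of 20 Hippo kinases and adaptors, 0 passed in either rise by limma or voom. With p unadjusted, 1 was higher and 0 lower from 25 mM, beside 9.25% of all genes in either direction. From 5 mM, 1 was higher and 2 were lower, beside 10.5% of all genes. At 25 mM against 5 mM, 10 were higher, among them AMOTL2, LATS2 and PTPN14, which are also in the target signature. Another 3 were lower, beside 17% higher and 22.1% lower among all genes. The counts were 5 higher and 2 lower without 25 mM replicate 1, 7 and 1 without 25 mM replicate 3, and 6 and 2 with a replicate block. SAV1, the scaffold of the kinase core, was higher by 0.53 and FRMD6, an upstream adaptor, by 0.51. LATS1, a kinase that phosphorylates YAP1 and TAZ directly, was higher by 0.44 and NF2, which brings it to the membrane, by 0.42, while MAP4K4, a kinase that activates LATS, was lower (log2 change -0.48). After 50 mM, 9 were higher and 2 lower with the 25 mM history, beside 18.1% and 23.3% of all genes. Of 11 tested genes for retention and degradation, 4 were higher and 0 lower at 25 mM: the phosphoserine-binding adaptors YWHAE, YWHAG and YWHAH and the ubiquitin ligase subunit BTRC, by 0.35, 0.26, 0.23 and 0.27. This count of 4 of 11 was near the 39.1% called among all genes, and it was 1 without 25 mM replicate 1, 2 without 25 mM replicate 3 and 2 with a replicate block. After 50 mM, 2 were higher and 0 lower with the 25 mM history, beside 18.1% and 23.3% of all genes. Median centring called 5, quantile normalization 4 and the replicate block 1, and leaving out a library moved the count in either direction. In the rises 0 passed by limma or voom, and 0 had an unadjusted p under 0.05. Of 17 tested nuclear partners, 5 were higher and 2 lower at 25 mM, among them RUNX2 and MYC (0.55 and 0.41) and the AP-1 subunit FOS (log2 change -0.65). The 7 of 17 called were near the 39.1% of all genes. Without 25 mM replicate 1 there were 2 higher and 0 lower, without 25 mM replicate 3 there were 3 and 1, and a replicate block gave 2 and 1. After 50 mM, 2 partners were higher and 3 lower with the 25 mM history, beside 18.1% and 23.3% of all genes. Leaving out 25 to 50 mM replicate 3 or either 5 to 50 mM replicate lowered the count called. In the rises 0 partners passed by limma or voom. With p unadjusted, 0 were higher and 3 lower from 25 mM, beside 9.25% of all genes in either direction. From 5 mM, 1 was higher and 2 were lower, beside 10.5% of all genes. VGLL1 and VGLL2, the other vestigial-like genes, stayed under the filter in every comparison. For the difference between the rises, 0 genes of these lists passed by limma or voom. With p unadjusted, 1 Hippo gene was higher and 2 nuclear partners were lower, beside 6.04% of all genes in either direction.

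Marker genes of other cell types also differed between the groups. The summed RPKM of 12 skeletal and smooth muscle markers was 965 to 990.3 in 25 to 50 mM libraries and 619 to 645 at 25 mM, against 1512 to 1583 in 5 to 50 mM libraries and 1096 to 1122 at 5 mM, with MYOD1 and MYOG at 0 throughout. Most of this sum was TAGLN, an actin-binding protein, which averaged 869 RPKM in 25 to 50 mM and 530 RPKM in 25 mM cultures, against 1420 RPKM in 5 to 50 mM and 993 RPKM in 5 mM cultures. By limma, TAGLN was higher in both rises (adjusted p = 0.022 from 25 mM and 0.0479 from 5 mM). No muscle marker was called in either rise without the filter, without the trend or with the replicate block. At 25 mM against 5 mM TAGLN and ACTA2 were lower, while CNN1, a calponin, was higher with 26.4 RPKM at 25 mM, against 11.5 RPKM at 5 mM. These 3 were named after their values were seen. That of the 15 fibroblast markers was 7738 to 8332 in 25 to 50 mM libraries and 7498 to 7760 at 25 mM, against 8594 to 8862 in 5 to 50 mM libraries and 8029 to 8517 at 5 mM. At 25 mM against 5 mM, 6 of the 15 fibroblast markers were higher and 6 lower by limma, beside 17% and 22.1% of all genes. The 18 cardiomyocyte markers summed to 3.2 to 3.97 RPKM in 25 to 50 mM libraries and 4.29 to 5.69 at 25 mM, against 8.58 to 9.52 in 5 to 50 mM libraries and 6.19 to 6.35 at 5 mM. The 8 endothelial markers summed to at most 5.94 RPKM in any library, with CDH5 and EMCN at 0. The part of these differences in the levels of the complex was not tested.

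VGLL3 and VGLL4 had the widest range of group means on the log2(RPKM + 1) scale, 0.93 and 0.68, against 0.11 for TEAD3, the narrowest. The genes most like VGLL3 were DLC1, UBL3 and EFNB2, with root mean square differences of 0.05, 0.07 and 0.07 between centred log2 values over 8 libraries, out of 9610 genes compared. DLC1 averaged 60.7 RPKM in 25 to 50 mM and 53.8 RPKM in 25 mM cultures, against 37.8 RPKM in 5 to 50 mM and 32.6 RPKM in 5 mM cultures. The genes most like VGLL4 were NINJ1, ASPHD1 and TMEM200B, with differences of 0.06, 0.07 and 0.07. NINJ1, a cell surface protein, averaged 21.7 RPKM in 25 to 50 mM and 29.1 RPKM in 25 mM cultures, against 34.5 RPKM in 5 to 50 mM and 37.5 RPKM in 5 mM cultures.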

How the data were processed

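RNA-seq was read from 8 AC16 libraries. The authors deposited RPKM values, 1 table per starting glucose, aligned with STAR to hg38 per the submitters' processing notes; the counting tool, annotation and strand setting are not given in the sources used here. RPKM divides a gene's reads by its length and the library's reads, so a change in a few abundant genes moves all others. Gene lengths were 0.797 to 1.01 times the GENCODE 29 coding length of the 8 genes. A library total and gene length that turn every value into whole reads within 0.0001 were found for 100% of the 16297 genes above 0. Groups came from sample titles.

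The tables were joined on gene_id. Genes reaching 1 RPKM in 2 or more of the fitted libraries were tested on log2(RPKM + 1) with limma 3.58.1 in R 4.3.3 (mean-variance trend, two-sided). Each rise was fitted on its own 4 libraries and the other comparisons on all 8, since upper quartiles differed 1.06-fold. A fold is that of log2(RPKM + 1) and understates changes of low genes. The script was tested on simulated data. The 8 genes and the lists were chosen with earlier results of these data known. Named beside them were some of the called list members, not strictly in order of size, 7 fixed targets, and the 3 genes most like the 2 most variable ones. Count-based voom was an alternative.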

Additional observations from a re-analysis of the deposited data

How the results depend on the processing

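Across the alternatives, 602 of 632 log2 changes of the 8 genes kept their direction and their side of the threshold, 7 lost a call, 2 gained one and 21 changed sign. The number of the 8 genes called ran from 0 to 1 from 5 to 50 mM when each library was left out, from 4 to 5 at 25 mM against 5 mM and from 4 to 5 between the cultures at 50 mM; it was 0 in all alternatives from 25 to 50 mM and for the difference between the rises. With a library left out, the lone library of a group is assumed to vary like the others. Uncalled small changes that turned sign were, from 25 to 50 mM, YAP1 (0.0384 with median centring, 0.00794 with quantile normalization, 0.00428 with the replicate block; leaving out libraries, -0.0539 to 0.0329), TEAD1 (-0.019 to 0.0641) and TEAD2 (-0.024 to 0.047); from 5 to 50 mM, TEAD2 (-0.0178 to 0.141) and VGLL4 (-0.34 to 0.21); at 25 mM against 5 mM, TEAD3 (-0.00691 to 0.0882); at 50 mM, TEAD3 (0.0524 with median centring, 0.0129 with quantile normalization, 0.00824 with the replicate block; -0.0243 to 0.00886); and in the difference between the rises, TEAD1 (-0.161 to 0.013), TEAD2 (-0.13 to 0.0293), TEAD4 (0.0145 with median centring; -0.0692 to 0.0174), VGLL3 (-0.243 to 0.00953) and VGLL4 (-0.519 to 0.0334). Replicate numbers 1 and 3 occur at both 25 and 5 mM, where their differences correlated at 0.302 over 9611 genes; nothing in the labels ties the numbers together. The replicate block over all 8 libraries took the calls at 25 mM against 5 mM to 4, with WWTR1 at adjusted p = 0.0835 (limma), and changed no other call of the 8 genes; in the target signature it took 4 calls from 5 to 50 mM to 0 and 15 at 25 mM against 5 mM to 12. Over all genes, limma calls from 25 to 50 mM were 1 (1057 at an unadjusted p under 0.05), against 4 with median centring or the joint fit, 2 with quantile normalization, 7 by voom and 0 without the filter, without the trend or with the block (0 to 777 leaving out a library). From 5 to 50 mM they were 39, against 60 with median centring, 61 with quantile normalization, 130 in the joint fit and 0 without the filter, without the trend or with the block (0 to 805). At 25 mM against 5 mM they were 4671, against 3024 without 25 mM replicate 1, and between the cultures at 50 mM 4946, against 3177 and 3242 without 5 to 50 mM replicates 1 and 2. For the difference they were 3, against 0 with smaller pseudocounts, a mean of at least 5 RPKM, the block or voom, and 1 without the filter or the trend (0 to 6 leaving out a library). Quantile normalized RPKM moved group means by more than 1 SD in 4 of 32 levels, WWTR1 (24.6), TEAD2 (21.4) and TEAD4 (78.3) in 25 to 50 mM and TEAD3 (61.4) in 5 to 50 mM, and the TEAD2 share in 25 to 50 mM (9.77%). Each of the 8 genes was covered by at least 161 reads; over them, the 2 libraries of a group gave a chi-square of 0.921 per degree of freedom in 5 to 50 mM and 1.72 in 25 to 50 mM, near the 1 that counting error alone gives, and 5.42 in 25 mM and 6.62 in 5 mM.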
